A study of Mus musculus with 4 samples.

Results

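The mRNA levels of 10 genes of the Piwi, Tudor and chromatoid body machinery were followed in testes that lack RFX2. These genes were Piwil1, Piwil2, Mael, Mov10l1, Tdrd1, Tdrd5, Tdrd6, Tdrd7, Tdrd9 and Rnf17, picked by symbol out of the 22311 gene symbols in the deposited files. All 10 were found, each as a single entry in every sample, and all 10 passed the filter on low values. RNA came from whole testes of male mice at 24 days of age, from 2 Rfx2-/- samples (mutant 1 and mutant 2) and 2 control samples (control 1 and control 2). In the mutant allele, exons 6 and 7 of Rfx2 are replaced by a neomycin-resistance cassette in every cell of the body, and the line came from 1 targeted embryonic stem cell clone. The labels call the controls wild type and the strain DBA, while the methods of the study describe heterozygous controls and a mixed strain background, so a control may carry 1 mutant allele. The comparison asks whether their transcripts depended on RFX2, and it matters here because the loss of Piwil1 (Miwi) or of Rnf17 is known to stop germ cells as round spermatids. No difference between mutant and control testes was detected for any of the 10 genes, where 2.83% of all genes tested were called. The 95% interval of every difference lay within 2-fold, as it did for 87.0% of all genes tested.

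PIWI proteins are Argonaute relatives that bind small piRNAs in germ cells and use them to find and cut transposon and other transcripts. In spermatocytes and round spermatids they work in cytoplasmic germ granules, of which the chromatoid body of the round spermatid is the best known. Tudor proteins recognise methylated arginines near the PIWI N-terminus and hold the granules together, so mutations in either class commonly end in germ cell arrest and male sterility.

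The files gave FPKM, that is fragments scaled by transcript length and by the depth of the library, with lower and upper bounds set by Cufflinks for each value. Read as counting error alone, these bounds would correspond to between 17.2 and 20.4 M fragments per sample. For the 10 genes they would correspond to between 3292 and 26249 fragments per sample. There they lay within 1.23% to 3.49% of the value and do not cover the spread between mice. The fragments did not always follow the level. Tdrd6 gave 18215 at 125 FPKM in control 1 but 20879 at 105 FPKM in control 2. Such numbers are therefore not counts of fragments. The targeted gene had 36.7 FPKM in mutant 1, 39.8 in mutant 2, 123 in control 1 and 89.4 in control 2, for the gene as a whole. Differences are given as log2 of FPKM plus a pseudocount of 1, mutant minus control, from limma with Benjamini-Hochberg adjustment over 12985 genes. One library stood apart, as the summed level of 10 elongating spermatid genes was 1523 FPKM in mutant 1, against 7081 in mutant 2, 8321 in control 1 and 5688 in control 2. Its part in the values of the 10 genes was not tested, and both mutant samples are therefore also given one at a time. Fewer cells of a type and less RNA per cell cannot be told apart in whole testis RNA.

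The 10 genes were among the more abundant transcripts of the testis. They took between 0.322% and 0.362% of all FPKM in a sample, and the lowest of them, Rnf17, was at the 80.9th percentile of the genes tested. FPKM is a level per transcript length, so levels can be set in order between genes. Mael was highest at 639 ± 20.2 FPKM (mean and SD, n = 4 samples), rank 36 of all genes tested, and between 49.0% and 51.8% of the summed FPKM of the 10 genes was Mael. Piwil1 at 154 ± 6.78, Tdrd6 at 118 ± 9.52 and Tdrd7 at 84.5 ± 7.52 FPKM followed. Their ranges over the 4 samples did not overlap those of their neighbours. Below them came Tdrd1 at 60.1 ± 6.92, Piwil2 at 58.4 ± 8.26, Tdrd9 at 47.6 ± 3.15, Tdrd5 at 40.3 ± 4.005, Mov10l1 at 37.0 ± 5.29 and Rnf17 at 34.8 ± 2.44 FPKM. Among these the ranges of each neighbouring pair overlapped, although genes farther apart could be separate, as the lowest value of Tdrd1 (53.2 FPKM) was above the highest of Tdrd9 (50.6 FPKM). Within a sample, Piwil2 was above Tdrd9 and Tdrd9 above Tdrd5 in 4 of 4 samples, while Tdrd1 was above Piwil2, Tdrd5 above Mov10l1, and Mov10l1 above Rnf17 in 3 of 4 samples each.

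**Figure D1:**
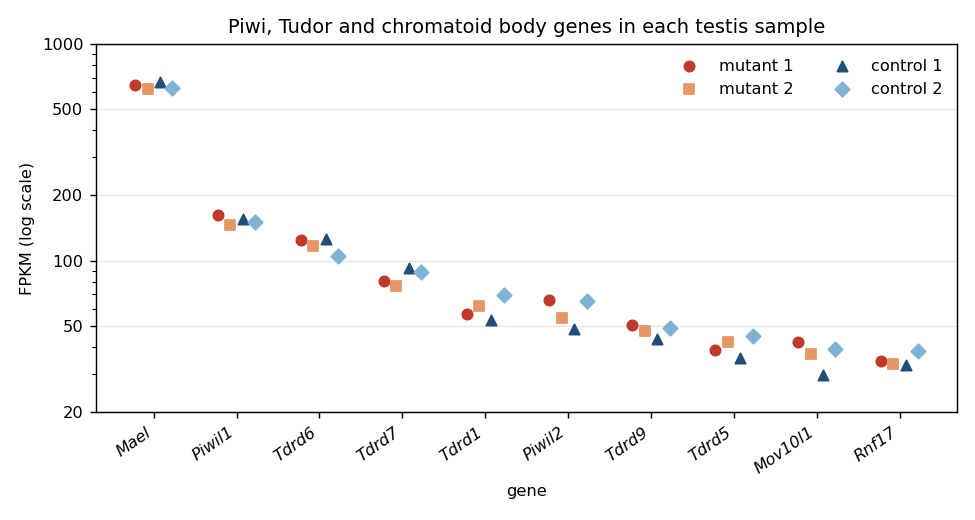
FPKM of the 10 genes in each testis sample (log scale), with genes ordered from the highest mean to the lowest. Circles and squares are mutant 1 and 2, triangles and diamonds control 1 and 2. For Tdrd7 the mutant points lie under the control points, and for the other 9 genes the genotypes overlap.

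Promoter sequence was compared because A-MYB (Mybl1) is known to switch on piRNA pathway genes at pachytene, while RFX proteins bind the X-box. RefSeq promoter windows (GRCm38.p6), each from 250 bases before to 50 bases after a start site, were at hand for 7 of the 10 genes, in 11 windows. The windows did not cover Piwil2, Tdrd6 and Rnf17. The letters GGCNGTT, the core of a MYB-type site, were searched on both strands and occurred for 5 of the 7 genes, namely Piwil1, Mael, Mov10l1, Tdrd1 and Tdrd7. Over all genes with such windows the share was 13.6% (3686 of 27025). Genes differ in their number of windows, and counted by window it was 5 of 11 against 12.1% of all windows. The standard X-box with a gap of 0 to 3 bases, also searched on both strands, had no match in the 11 windows, and was present for 1.75% of all genes. The cyclic AMP response element TGACGTCA, the site of CREM and its own reverse complement, had no match either, and was present for 2.03% of all genes. A match is a run of letters and not a measured site, and no match says only that the letters are not in these windows. The matches below are shown because they are what 5 of these promoters have in common, with the motif, on either strand, in capitals and 8 bases on each side, read 5′ to 3′ along the strand of the gene.
Piwil1, chr5:128736163-128736185, plus strand: agggatctGGCAGTTggggctgt
Piwil1, chr5:128736172-128736194, plus strand: gcagttggGGCTGTTagcaggtg
Mael, chr1:166238827-166238849, minus strand: cagtttcaGGCTGTTttcacccc
Tdrd7, chr4:45965244-45965266, plus strand: gggcctttGGCAGTTgatgtagg
Tdrd1, chr19:56830582-56830604, plus strand: attgagaaGGCGGTTtggatggt
Mov10l1, chr15:88982748-88982770, plus strand: cacgtgctAACCGCCaacctctc
Counted from the start site, the motifs of Piwil1 began at -75 and -66, so that the flank of each overlaps the other motif, and a further match on the opposite strand lay at -189. The match of Mael began at -97, that of Tdrd7 at -83, that of Tdrd1 at -122 and that of Mov10l1, on the opposite strand, at -238. Only 1 of the 3 windows of Tdrd7 and 1 of the 3 of Tdrd1 held a match.

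The mRNAs of the PIWI proteins themselves showed no detectable change. Piwil1 encodes MIWI, the PIWI protein of pachytene spermatocytes and round spermatids, and lies on chromosome 5 from 129242121 to 129261349 in NCBIM37 (mm9). Its FPKM was 162 in mutant 1, 147 in mutant 2, 156 in control 1 and 150 in control 2, so the control samples fell between the mutant samples. The difference was 0.0068 on the log2 scale, a mutant to control ratio of 1.005 with a 95% interval from 0.768 to 1.31 (limma, adjusted p = 1.0). Piwil2 encodes MILI, which acts from spermatogonia to round spermatids, and lies on chromosome 14 from 70772287 to 70828901. It had 65.7 FPKM in mutant 1, 54.6 in mutant 2, 48.6 in control 1 and 64.8 in control 2. The highest value belonged to a mutant and the lowest to a control sample, with the genotypes overlapping. Its log2 difference was 0.092, a ratio of 1.07 with an interval from 0.778 to 1.46 (limma, adjusted p = 1.0).

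Mael and Mov10l1 act beside the PIWI proteins. Mael, on chromosome 1 from 168131516 to 168168875, encodes maelstrom, a protein of the germ granules required for transposon silencing and found in the chromatoid body. Its FPKM was 648 in mutant 1, 622 in mutant 2, 664 in control 1 and 624 in control 2, the narrowest spread of the 10 genes, with the highest sample 1.07 times the lowest. The mutant to control ratio was 0.986 (95% interval 0.699 to 1.39, limma, adjusted p = 1.0). Mov10l1, on chromosome 15 from 88813339 to 88885582, encodes the RNA helicase that feeds piRNA precursors into processing. Its FPKM was 42.1 in mutant 1, 37.2 in mutant 2, 29.7 in control 1 and 39.0 in control 2. This was the widest spread of the 10 genes (1.42 times from lowest to highest), and control 1 alone was low. Its ratio of 1.16 was the highest of the 10, with an interval from 0.858 to 1.57 (limma, adjusted p = 1.0). The log2 difference of Mov10l1 was 0.21 with all samples, 0.022 without control 1 and 0.40 without control 2, so that its size turned on which control was used.

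Of the Tudor genes, Tdrd7 was the only one with no overlap between the genotypes. TDRD7 takes part in remodelling the chromatoid body and in keeping retrotransposons from being translated, and its gene lies on chromosome 4 from 45978206 to 46047633. Tdrd7 reached 92.8 FPKM in control 1 and 88.6 in control 2, and 80.2 and 76.4 FPKM in mutants 1 and 2. Each pair of replicates was close together, and the deposited bounds of both mutant samples lay below those of both control samples. That held in either direction for no other gene of the 10, but its share over all genes was not computed. The bounds are narrow and also lay apart between the 2 controls for all 10 genes. The log2 difference was -0.21 (standard error 0.16), a ratio of 0.865 with an interval from 0.673 to 1.11, and it did not pass the test (limma, adjusted p = 1.0). Groups that do not overlap were common, with the mutants lower for 15.2% and higher for 16.3% of all genes tested, so 1 gene of 10 is no more than that background. Leaving out any single sample gave a difference between -0.24 and -0.18. Without overlap between the genotypes its sign could not change, so these values are no further test. The standard error of Tdrd7 was drawn by limma partly from other genes, and not only from its own close replicates.

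Tdrd6, on chromosome 17 from 43752284 to 43767248, is a large Tudor protein gene needed for the architecture of the chromatoid body. It shares its chromosome with Rfx2 at a distance of 13.2 Mb. Tdrd6 was at 124 FPKM in mutant 1, 117 in mutant 2, 125 in control 1 and 105 in control 2, and both mutant values fell between the controls. Its ratio was 1.05 with an interval from 0.797 to 1.39 (limma, adjusted p = 1.0). Tdrd1, on chromosome 19 from 56900699 to 56944502, encodes a multi-Tudor protein that binds MILI. Its values were 56.5 FPKM in mutant 1, 61.6 in mutant 2, 53.2 in control 1 and 69.1 in control 2, and here too the controls enclosed the mutants. The ratio for Tdrd1 was 0.973 (interval 0.727 to 1.30, limma, adjusted p = 1.0).

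Tdrd5 and Rnf17 also had both mutant values between the controls, while for Tdrd9 mutant 1 was above both controls. Tdrd5, on chromosome 1 from 158185426 to 158233795, encodes a Tudor and LOTUS domain protein needed for chromatoid body assembly. It was at 38.6 FPKM in mutant 1, 42.0 in mutant 2, 35.6 in control 1 and 44.9 in control 2, giving a ratio of 1.01 (interval 0.759 to 1.34, limma, adjusted p = 1.0). Tdrd9, on chromosome 12 from 113209770 to 113307065, encodes a Tudor helicase that partners the PIWI protein MIWI2 in fetal germ cells. Its FPKM was 50.6 in mutant 1, 47.2 in mutant 2, 43.3 in control 1 and 49.1 in control 2, with a ratio of 1.06 (interval 0.817 to 1.37, limma, adjusted p = 1.0). Rnf17, also called Tdrd4, lies on chromosome 14 from 57021534 to 57143869 and encodes a RING and Tudor protein of a separate germ cell granule. Rnf17 was at 34.6 FPKM in mutant 1, 33.4 in mutant 2, 33.0 in control 1 and 38.3 in control 2, with a ratio of 0.957 (interval 0.735 to 1.25, limma, adjusted p = 1.0). In all 3 genes the genotypes overlapped.

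**Figure D2:**
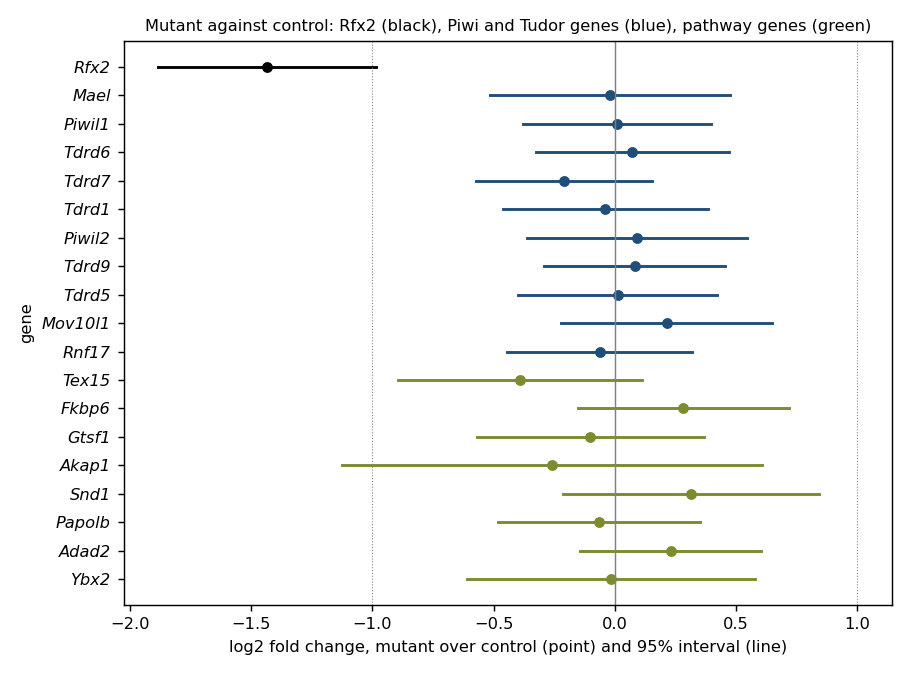
Log2 fold change (point) and 95% interval (line) of mutant over control from limma, for Rfx2 in black, the 10 genes in blue and 8 further pathway genes in green, with dotted lines at 2-fold. The intervals of the 10 genes all include 0 and stay inside the dotted lines, while that of Rfx2 runs from -1.88 to -0.98.

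As a group, 0 of the 10 genes were lower and 0 were higher at an adjusted p under 0.05 in limma, against 2.52% lower and 0.308% higher (2.83% in either direction) of all genes tested. At an unadjusted p under 0.05 the count was also 0, where 6.68% of all genes were lower and 2.01% higher (8.69% in either direction). Their log2 fold changes had a median of 0.0089, beside 0.032 over all genes tested, and the values ran from -0.21 for Tdrd7 to 0.21 for Mov10l1, with 6 above and 4 below 0. For 9 of the 10 genes the difference between genotypes was smaller than the larger of the 2 differences within a genotype, which held for 78.3% of all genes tested. The 95% interval stayed within 2-fold in either direction for all 10 genes (87.0% of all genes tested) and within 1.5-fold for 9 of them (38.3% of all genes tested), Mov10l1 being the exception. With 2 samples a genotype, differences inside these intervals remain possible. By comparison, the log2 fold change of Rfx2 was -1.43 (95% interval -1.88 to -0.98, limma, adjusted p = 0.00617). Without control 1 the adjusted p of Rfx2 was 0.0628.

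The wider pathway was described by a list of 38 other genes, of which 37 were found and 35 passed the filter. At an adjusted p under 0.05 in limma 0 of the 35 were lower and 0 were higher, where 2.83% of all genes tested were called, and at an unadjusted p under 0.05 the count was 0, where the share was 8.69%. With so small a share called over all genes, these counts do not set the list apart. Their median log2 fold change was 0.016, beside 0.032 over all genes tested, and the interval stayed within 2-fold for 34 of the 35, as it did for 87.0% of all genes tested. Among 16 piRNA factors tested, the largest fall in value was Tex15, a nuclear effector of PIWI-guided silencing, at 10.5 and 9.86 FPKM in the mutants against 11.5 and 16.2 in the controls (log2 fold change -0.39, interval -0.89 to 0.11). The largest rise in value was Fkbp6, a co-chaperone in piRNA loading, at 52.8 and 45.6 FPKM in the mutants against 35.1 and 46.0 in the controls (0.28, interval -0.15 to 0.72). Gtsf1, a zinc finger partner of PIWI proteins, had the highest level of this list. It was at 268 and 328 FPKM in the mutants, and at 342 and 296 in the controls, with overlap between the genotypes. Neither Tex15, Fkbp6 nor Gtsf1 passed the test.

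Of 6 genes for further Tudor proteins and for the arginine methylation they read, Snd1, which encodes a Tudor and nuclease-like protein, had the largest rise in value at 14.6 and 11.5 FPKM in the mutants against 8.68 and 12.1 in the controls (log2 fold change 0.31, interval -0.22 to 0.84). Akap1, a mitochondrial anchor protein gene with a Tudor domain, had both the largest fall in value and the highest level. Mutant 1 had 31.0 FPKM of Akap1 and mutant 2 had 80.1, with 62.0 and 58.1 in controls 1 and 2, so that the mutants lay on opposite sides of the controls. Its log2 fold change was -0.26 with an interval from -1.13 to 0.61, the only one of the 35 to leave the 2-fold range. It was -0.93 when mutant 2 was left out (limma, adjusted p = 0.00077, with mutant 1 assumed to vary like the controls) and 0.41 when mutant 1 was left out (adjusted p = 0.697). Akap1 is also widely used outside germ granules, in anchoring signalling enzymes at mitochondria.

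Among 13 chromatoid body RNA factors tested, Ybx2, an mRNA-storing Y-box protein gene, was the most abundant at 972 and 1037 FPKM in the mutants and 1154 and 893 in the controls. Adad2, which encodes a granule protein that partners RNF17, had the largest rise in value, with 31.0 and 30.6 FPKM in the mutants above 24.9 and 27.5 in the controls (log2 fold change 0.23, interval -0.14 to 0.60). The largest fall in value was that of Papolb, the cytoplasmic poly(A) polymerase TPAP of spermatids, at -0.066 on the log2 scale. None of these differences passed the test in limma.

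Mutant 1 and mutant 2 were also set against the control mean one at a time, because the 2 mutant samples differed in their spermatid genes. For the 10 genes the median log2 difference was 0.044 in mutant 1 and -0.0084 in mutant 2, beside 0.096 and -0.029 over all genes tested. Single genes ran from -0.18 to 0.30 in mutant 1 and from -0.24 to 0.13 in mutant 2. In mutant 1 the elongating spermatid genes (Tnp1, Tnp2, Prm1, Prm2 and 6 others) had a median difference of -1.26 and ran from -3.54 to -0.49. The 6 round spermatid genes had a median of -0.48 in the same sample. In mutant 2 these medians were 0.22 and 0.30. The elongating spermatid genes ran there from -0.36 for Tnp1 to 0.84 for Oaz3. Tnp1, Prm1 and Prm2 were below the control mean and the others of that list above it. No gene of either list passed the test over both mutants. The median was 0.29 for 7 early meiotic genes and 0.034 for 5 late pachytene genes in mutant 1, and -0.044 and 0.022 in mutant 2. In mutant 1 the 10 genes ranged from -0.18 to 0.30. The early meiotic genes ran from 0.13 to 0.51 and the late pachytene genes from -0.76 to 0.35. The round spermatid genes ran from -0.96 to -0.0067. These ranges all overlapped that of the 10 genes. Of the cell type lists, only the elongating spermatid genes, which ended at -0.49, did not overlap it.

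**Figure D3:**
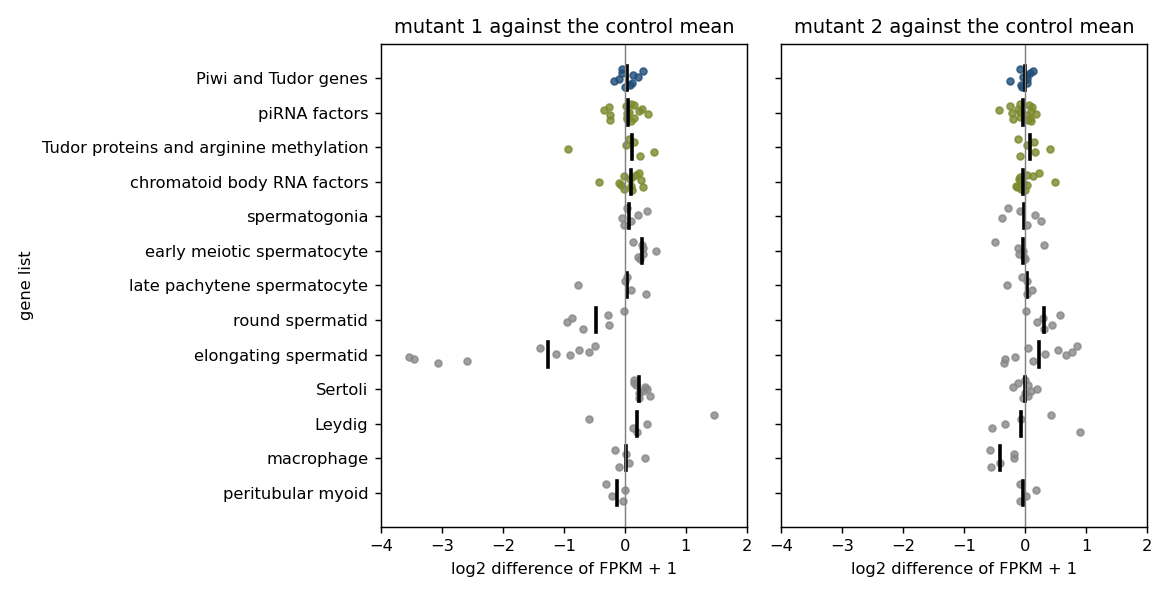
Log2 difference of FPKM + 1 from the control mean for each gene tested, in mutant 1 (left) and mutant 2 (right). Each point is a gene, black bars are medians, blue marks the 10 genes, green the further pathway lists and grey the cell type marker lists. The elongating spermatid genes spread down to -3.54 in mutant 1, where the 10 genes stay between -0.18 and 0.30.

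For most of the 10 genes the largest difference was between the control samples. The exceptions were Piwil1, which differed more between the mutants, and Tdrd7, which differed more between the genotypes. The deposited bounds did not overlap between control 1 and control 2 for any of the 10 genes, nor between mutant 1 and mutant 2 for 9 of them. For these abundant genes the bounds lay within 3.49% of the value, and the share over all genes was not computed. The median absolute log2 difference was 0.23 between the controls and 0.11 between the mutants, beside 0.22 and 0.21 over all genes tested. In the controls the genes divided by level. The 4 most abundant ones, Mael, Piwil1, Tdrd6 and Tdrd7, were lower in control 2, by between -0.26 for Tdrd6 and -0.056 for Piwil1 on the log2 scale, and the 6 others were higher in control 2, by 0.18 for Tdrd9 up to 0.41 for Piwil2. Of all genes tested, 59.0% were higher in control 2, and so were 24 of the 35 pathway genes tested. The most abundant gene of each pathway list, Gtsf1, Akap1 and Ybx2, was lower in control 2 (-0.21, -0.093 and -0.37). Other genes of these lists went against such a split. Ddx4 (mean 208 FPKM) was higher in control 2, by 0.074, and Dnmt3l (mean 2.52 FPKM) was lower, by -0.19. The division by level was therefore not clean among the pathway genes. The 10 elongating spermatid and 5 late pachytene genes were all lower in control 2, with median log2 differences of -0.42 and -0.20, and 6 of the 7 early meiotic and all 9 Sertoli cell genes were higher, with medians of 0.27 and 0.50. The part of cell composition in these differences was not tested. Between the mutants, 8 of the 10 genes were lower in mutant 2, by up to -0.26 for Piwil2, and only Tdrd1 and Tdrd5 were higher, by 0.12 each. Of all genes tested, 31.9% were higher in mutant 2.

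**Figure D4:**
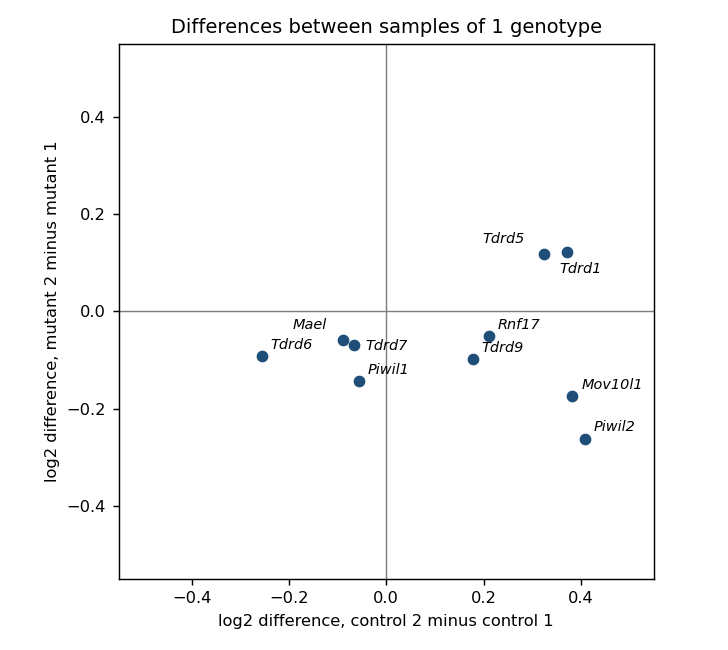
Log2 difference between the samples of each genotype for the 10 genes, with control 2 minus control 1 on the horizontal and mutant 2 minus mutant 1 on the vertical axis. Piwil2 and Mov10l1 lie at the lower right, higher in control 2 and lower in mutant 2, while Tdrd1 and Tdrd5 are higher in the second sample of both genotypes.

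The mean profile of the 10 genes over the 4 samples, centred on its mean, was 0.042 in mutant 1, -0.028 in mutant 2, -0.077 in control 1 and 0.063 in control 2 on the log2 scale. The genes tested with the most similar centred profile, by Euclidean distance over these 4 samples, were Ppp4r4 (0.018), 1700014N06Rik (0.020), Prpf38b (0.021), Klhl24 (0.022) and Cdkn1c (0.023). Under quantile normalization these distances lay between 0.11 for Prpf38b and 0.24 for Cdkn1c. With a pseudocount of 0.01 they were 0.10 for 1700014N06Rik and 0.062 for Cdkn1c, so the nearness depended on the processing. The 10 genes themselves lay between 0.075 for Tdrd9 and 0.29 for Tdrd6 from their mean profile. Since 47.8% of all genes tested were within 0.29 of it, the profile is a common one and does not single out these genes.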

How the data were processed

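RNA-seq of whole testis was available for 2 mutant and 2 control samples. The authors aligned reads to mm9 with TopHat2 2.0.6 and estimated gene levels with Cufflinks, and they deposited for each sample FPKM with lower and upper confidence bounds. FPKM are normalized for transcript length and depth within a sample, so no read counts were modelled, and the pooled Cuffdiff comparison was not repeated. Entries sharing a symbol were summed. The 12985 genes that reached an FPKM of 1 in 2 or more samples were tested as log2(FPKM + 1) in limma 3.58.1 under R 4.3.3 (lmFit, eBayes with trend, two-sided, threshold 0.05), after the functions were tested on simulated data. An exact permutation test of 2 against 2 samples cannot reach 0.05 and was not used. Fragments were taken from the bounds as the squared ratio of FPKM to its standard error, which treats the bounds as counting error alone. P-values and intervals rest on the spread between these samples, with the variance of each gene moderated by limma towards that of other genes. They do not measure the replicate spread of a single gene alone.

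The 10 genes and all lists were chosen with earlier results of these data known. Named were all 10 genes, Rfx2, from each pathway list the largest fall, rise and level, and the 5 nearest profiles. Henmt1 and Btbd18 were found under the symbols 4921515J06Rik and Gm13718 through RefSeq synonyms, and Spocd1 and Rhox5 were not matched. Positions are from GENCODE vM1 on NCBIM37. The search for arginine-glycine pairs in proteins was not run, since protein sequences were not used here. Tables were made with Python 3.11.15. Alternatives were other pseudocounts, filters, scalings and variance models, replicate blocks, the highest entry per symbol, and leaving out each sample.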

Additional observations from a re-analysis of the deposited data

How the results depend on the processing

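Under all 15 alternatives, 0 of the 10 genes were lower and 0 were higher at an adjusted p under 0.05 in limma, and the smallest adjusted p of any of them was 0.743. Their log2 fold changes ran from -0.23 to 0.27 with all 4 samples kept and from -0.24 to 0.40 when 1 was left out. The median of the 10 genes was 0.0089 and ran from -0.060 to 0.094 under the alternatives. Each move was less than the spread between replicates. That spread comes from the same 4 samples, so leaving 1 out could hardly move the median by more. Directions this close to 0 were not stable. Median-ratio scaling turned Piwil1 to -0.014 and Tdrd5 to -0.0092, and quantile normalization turned Piwil1 to -0.0065 and Ybx2 to 0.040. Leaving out 1 sample gave -0.065 to 0.079 for Piwil1, -0.11 to 0.30 for Piwil2, -0.065 to 0.024 for Mael, -0.22 to 0.15 for Tdrd1, -0.15 to 0.17 for Tdrd5, -0.056 to 0.20 for Tdrd6, -0.0076 to 0.17 for Tdrd9 and -0.17 to 0.042 for Rnf17. It gave -0.25 to 0.043 for Gtsf1, -0.93 to 0.41 for Akap1, -0.20 to 0.067 for Papolb and -0.20 to 0.17 for Ybx2, and between 0 and 1 pathway genes called lower. Where 1 sample remained, it was assumed to vary like the other group. The adjusted p of Rfx2 was 0.0607 without a filter and 0.0829 with median-ratio scaling.

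Over all genes, 327 lower and 40 higher genes became 199 and 17 without a filter, 202 and 17 with a filter at an FPKM of 5, 206 and 16 with median-ratio scaling, and 67 higher with robust eBayes. Leaving out 1 sample gave 167 to 948 lower and 13 to 162 higher genes. The replicate block from the labels gave 525 lower and 70 higher genes. The labels do not say what same-numbered samples share beyond the number. The correlation of their deviations was -0.15, which cannot decide this with 2 samples a genotype. The crossed replicate block, added after the data were seen, gave 266 lower and 28 higher genes. Neither block called any of the 10 genes. The cause of these shifts was not tested. With 2 samples a genotype, the widest intervals of the 10 genes still allow a ratio as low as 0.673 or as high as 1.57.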

Other observations

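Of the 37 pathway genes found, 2 were below the filter on low values and were not tested. Piwil4, which encodes MIWI2, the nuclear PIWI protein of fetal prospermatogonia, was at 0.15 FPKM in mutant 1, 0.208 in mutant 2, 0.171 in control 1 and 0.337 in control 2, and Nanos2, a regulator of male germ cell fate, was at 0.133 FPKM or less in each sample.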
